A study of Mus musculus with 6 samples.

Results

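The genes described here are named for the proteins of the cytosolic ribosome. They were chosen by symbol alone: every gene of the authors' deposited table named Rpl or Rps with a number, with an optional letter, plus Rpsa and the stalk genes Rplp0, Rplp1 and Rplp2, while names ending in -ps with a number, which mark pseudogenes, were left out. This gave 83 of the 15648 genes listed. Of the 80 proteins of the mouse ribosome, 75 were among them, 45 of 47 of the large subunit and 30 of 33 of the small subunit. The other 8 were 4 paralogues with introns (Rpl3l, Rpl7l1, Rpl22l1 and Rps27l) and 4 single-exon copies (Rps3a2, Rps3a3, Rps4l and Rps12l1). GENCODE M21 annotates these 4 copies as processed pseudogenes, so the name rule did not leave out every pseudogene. Fau and Gnb2l1 (the older symbol of Rack1) are among the genes that encode ribosomal proteins under names the rule does not reach, and Rps12 and Rpl38 were not analysed here.

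The study compared the intermolar eminence, the raised back part of the tongue, of C57BL/6 mouse embryos at E17.5 between wild type (WT) and mutants of Fst, which encodes follistatin, a secreted binder of activins and of some bone morphogenetic proteins. The groups were 3 WT libraries and 3 libraries labelled Fst-KO, and the type of Fst allele was not given in the sources used here. By label the tissue is tongue epithelium, whereas the protocol describes whole dissected eminence. Total RNA was sequenced, and the authors' deposited table holds for each gene a group mean, a ratio, a p-value and a false discovery rate (FDR), but no value per library. Whether each library came from a separate embryo is not stated beyond the word triplicate, so the p-values measure the spread between libraries, which may be technical.

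A ribosome is built from a small subunit, which reads the mRNA, and a large subunit, which joins amino acids into protein. Cells need all of the proteins in near-equal amounts, and in mammals their mRNAs share a tract of pyrimidines at the 5′ end, the terminal oligopyrimidine (TOP) motif, through which mTOR signalling sets their translation. Ribosomal protein mRNAs are short and abundant and have been copied back into the genome many times, so each intron-containing parent gene can have near-identical intronless retrocopies.

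Stretches of 2 pairs of parent and copy are shown, since many members have listed copies of nearly the same sequence. Each line is 60 bases of coding sequence, with the 5 bases on either side of a junction between exons of the parent in capitals.
Rpl37 (chr15, exons 2 and 3): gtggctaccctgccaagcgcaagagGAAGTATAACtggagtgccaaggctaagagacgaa
Rpl37rt (chr5): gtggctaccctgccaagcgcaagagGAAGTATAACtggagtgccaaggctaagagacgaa
Rps27 (chr3, exons 2 and 3): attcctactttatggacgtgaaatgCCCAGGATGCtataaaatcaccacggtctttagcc
Rps27rt (chr9): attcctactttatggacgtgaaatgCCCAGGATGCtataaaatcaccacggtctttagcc
In both pairs the mismatches numbered 0. In the parent the capitals are split by an intron in the genome, whereas in the copy they lie in one piece. In GRCm38 (the assembly that mm10 names) the Rps27 stretch lies on the minus strand at chr3:90213193-90213222 and chr3:90213015-90213044, and its copy at chr9:114982563-114982622, also on the minus strand.

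As a group, the ribosomal protein genes had higher means in the libraries labelled Fst-KO than in WT. Their median ratio of Fst-KO over WT was 1.31, with quartiles of 1.16 and 1.62, against a median of 1.14 over all 15648 genes. Relative to that shift of all genes (0.18 on the log2 scale), the median of the ribosomal protein genes was 1.15. A ratio above 1 was found for 80 of the 83, beside a background of 81% of all genes, and a ratio above 1.5 for 29 of the 83 (34.9%), beside 5.5% of all genes. No member passed an FDR of 0.05, for which the background was 0.0959% of all genes, and the lowest FDR of a member in the authors' deposited table was 0.293. At an unadjusted p under 0.05 there were 3 members with a higher mean in Fst-KO (3.61%, beside a background of 13.4%) and 1 with a lower mean (1.20%, beside 2.17%). The tests were those of the authors, made with Partek's gene-specific analysis.

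Small p-values were rare among the members, those with a large ratio included. Of the 29 members with a ratio above 1.5, 27 had a p of 0.05 or more in the authors' deposited table, beside 79 of all 83, and the other 2 were Rplp0 and Rps26. The 13 with a ratio above 2 had p-values between 0.105 and 0.199. Summed over the 83 genes, the group means were 6002 in Fst-KO and 4743 in WT, a ratio of 1.27. The sum was 0.892% of all listed values in Fst-KO and 0.750% in WT.

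**Figure D1:**
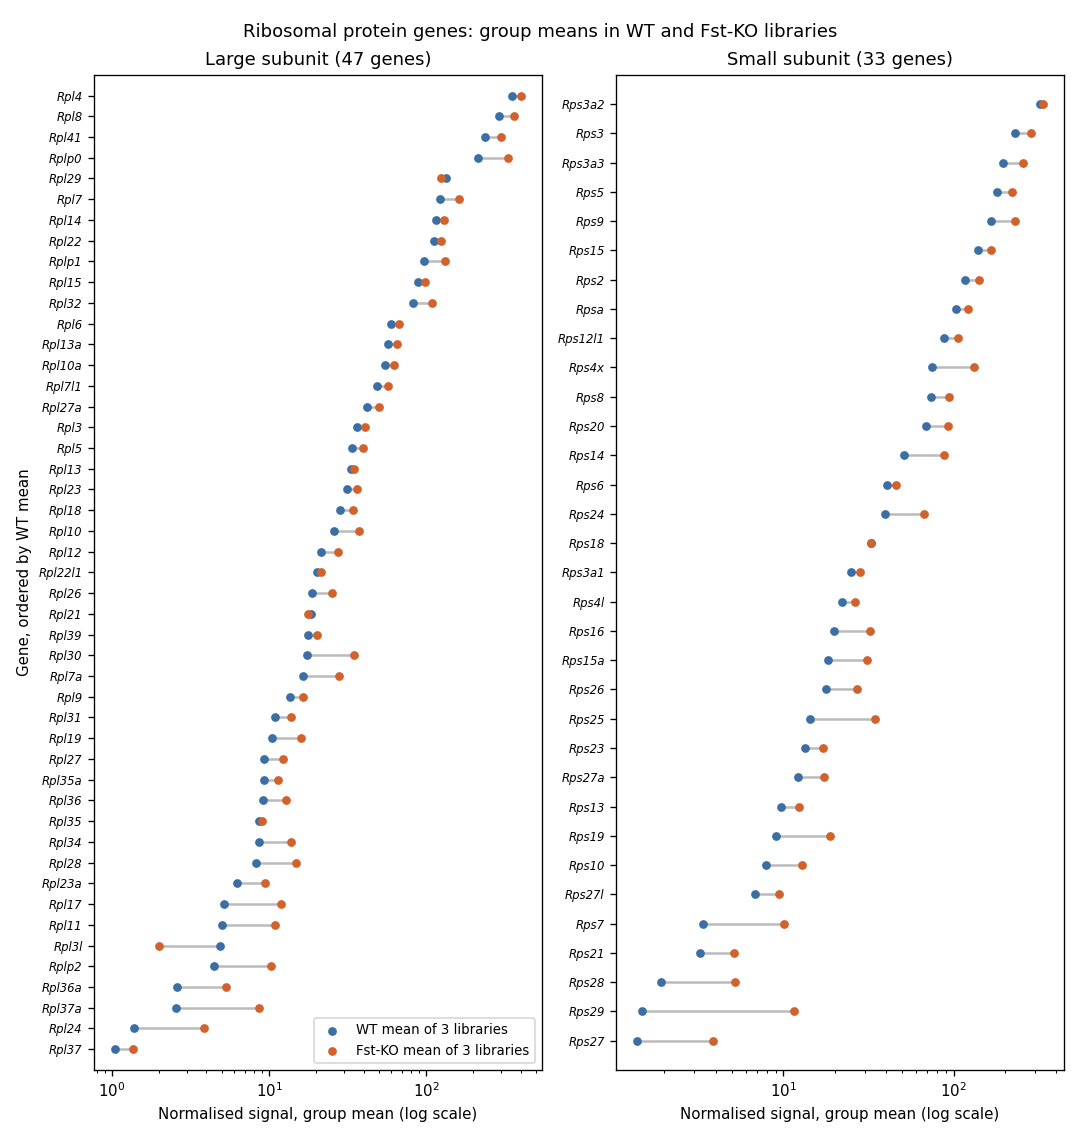
Group means of 80 of the 83 ribosomal protein genes, large subunit on the left and small subunit on the right, ordered by WT mean. The horizontal axis is the authors' normalised signal on a log scale, blue points are the mean of 3 WT libraries and orange points the mean of 3 Fst-KO libraries. The widest gaps lie among genes of low WT mean, such as Rps29 (1.47 and 11.5), and Rpl3l is the gene with the widest gap in the other direction.

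The labels were checked on Fst itself, which is at chr13:114452290-114458951 on the minus strand. The authors' deposited table gave group means of 69.7 for the libraries labelled Fst-KO and 33.2 for WT, a ratio of 2.10 with an FDR of 0.0158. The knocked-out gene was thus higher in the group named for its loss, and whether the counted sequence lies outside a deleted part was not given in the sources used here. Both groups are therefore called by their labels throughout.

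Group means of tissue markers were unequal too. All 10 of 10 skeletal muscle markers were listed, with sums of 9065 in Fst-KO and 12487 in WT (median ratio 0.698), so tissue under the epithelium was present in both groups. All 10 of 10 epithelial keratin and junction markers were listed, with sums of 15983 and 12016 (median ratio 1.30), and all 10 of 10 mesenchymal markers, with sums of 6314 and 4718 (median ratio 1.32). Of 8 erythroid markers 5 were listed, with sums of 670 and 368 (median ratio 1.76). None of these markers passed the FDR of 0.05 in the authors' deposited table. In bulk tissue, fewer cells of a type and less RNA per cell cannot be told apart, and the part of cell content in the ratios of the ribosomal protein genes was not tested.

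Among the canonical large subunit genes, 43 of 45 had a ratio above 1, the median was 1.27, and 13 (28.9%) exceeded 1.5. All 30 small subunit genes had a ratio above 1, the median was 1.55, and 16 (53.3%) exceeded 1.5. The difference between the subunits was not tested. The small subunit held several of the highest ratios of all members, but it also held the gene nearest to no difference, Rps18.

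The acidic stalk is the part of the large subunit that draws elongation factors to the ribosome. Rplp0, its anchor on the ribosomal RNA (chr5:115559467-115563727, plus strand), had a mean of 335 in Fst-KO and 215 in WT in the authors' deposited table, a ratio of 1.56 (unadjusted p = 0.0338, FDR 0.311 in Partek's gene-specific analysis). Rplp1, which pairs with Rplp2 on that anchor, had means of 131 and 96.4 and, in the authors' deposited table, a ratio of 1.36 (p = 0.0520). Rplp2 had means of 10.3 and 4.45 in the authors' deposited table, a ratio of 2.31, with the weakest test of the trio (p = 0.140). The stalk genes were thus all above the shift of all genes, with the ratio largest where the level was lowest and the p smallest where the level was highest.

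The other pair of members with a higher mean and a p under 0.05 lay close together on chromosome 10. Rpl41, which encodes a very short basic peptide of the large subunit (chr10:128548114-128549305, minus strand), had means of 299 in Fst-KO and 236 in WT in the authors' deposited table, a ratio of 1.27 and the smallest p of all members (p = 0.0132, FDR 0.293). Rps26, a protein of the mRNA exit side of the small subunit (chr10:128624534-128626747, minus strand), had means of 27.1 and 17.9 in the authors' deposited table, a ratio of 1.52 (p = 0.0490, FDR 0.319).

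The 5 most abundant members gave a narrow band of ratios apart from Rplp0. Rpl4, a large subunit protein that lines the exit tunnel, had means of 404 in Fst-KO and 354 in WT in the authors' deposited table, a ratio of 1.14. Rpl8, near the site of peptide bond formation, had means of 363 and 290.4 in the authors' deposited table, a ratio of 1.25. Rps3a2, a single-exon copy of Rps3a1, had means of 338 and 322 in the authors' deposited table, a ratio of 1.05. With Rpl41, these genes spanned 1.05 to 1.27, and Rplp0 at 1.56 stood above them.

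The highest ratios belonged to genes of low level, and 11 of the 13 ratios above 2 were from genes below the median level of all genes. Apart from Rps7, Rpl11, Rpl36a and Rplp2, which belong to named groups, these low-level genes fall outside the rule for named genes and are named here after their values were seen. Rps29, a small zinc-binding protein of the head of the small subunit (chr12:69157722-69159186, minus strand), had means of 11.5 in Fst-KO and 1.47 in WT in the authors' deposited table, a ratio of 7.81 (p = 0.173). Rpl37a, another zinc-binding protein, of the large subunit, had means of 8.66 and 2.54 in the authors' deposited table, a ratio of 3.41 (p = 0.192). Rps7, a small subunit protein needed for rRNA maturation, had means of 10.02 and 3.36 in the authors' deposited table, a ratio of 2.98 (p = 0.199). These 3 genes combined the largest ratios with p-values well above 0.05, and without values per library it cannot be seen whether 1 library or all 3 carried the difference.

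Rpl24, a large subunit protein that forms a bridge to the small subunit, had means of 3.84 and 1.38 in the authors' deposited table, a ratio of 2.79. Rps27 had the same ratio to 3 digits, from means of 3.83 and 1.37 in the authors' deposited table. Rps28 followed at 2.73, Rpl17 at 2.30, Rpl11 at 2.17, Rps19 at 2.07 and Rpl36a at 2.06 in the authors' deposited table. Above the median level, the highest ratios were those of Rps25 (means of 34.7 and 14.3, ratio 2.42, p = 0.136) and Rpl30 (means of 34.9 and 17.4, ratio 2.002, p = 0.140) in the authors' deposited table. Rps25 is a small subunit protein known for its part in internal initiation on viral RNAs, and Rpl30 is a large subunit protein at the interface of the subunits.

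Other well expressed small subunit genes had ratios of 1.62 to 1.76 in the authors' deposited table: Rps4x at 1.76, Rps14 at 1.73, Rps24 at 1.71, Rps15a at 1.71 and Rps16 at 1.62. Of the large subunit, Rpl7a at 1.70 was in the same range. Their p-values lay between 0.0768 (Rps14) and 0.201 (Rpl7a) in the authors' deposited table. Whether these genes share a library that set them apart cannot be seen from group means.

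At the other end, 3 of the 83 members had a lower mean in Fst-KO (Rpl29, Rpl21 and Rpl3l), and Rps18 was nearly level. Rpl29, a large subunit protein that mice can live without, had means of 124.5 in Fst-KO and 134 in WT in the authors' deposited table, a ratio of 0.927 (p = 0.455). Rpl21, a large subunit protein, had means of 17.8 and 18.4 in the authors' deposited table, a ratio of 0.967 (p = 0.697). Rps18, of the head of the small subunit, had nearly equal means of 32.9 and 32.8 in the authors' deposited table (p = 0.917). None of these 3 differences passed the authors' test, and the ratios lay below the median of all genes.

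Rpl3l was the member with the clearest lower mean. It is the striated muscle paralogue of Rpl3, whose product lies beside the site of peptide bond formation. In the authors' deposited table Rpl3l (chr17:24727820-24736143, plus strand) had means of 1.98 in Fst-KO and 4.86 in WT, a ratio of 0.408 (p = 0.0203, FDR 0.301). Rpl3 had means of 41.1 and 36.3 in the authors' deposited table, a ratio of 1.13 (p = 0.463). Of the 10 skeletal muscle markers 8 also had a ratio below 1, while Myh3 at 1.21 and Myh1 at 1.19 were above 1 in the authors' deposited table. Of the 8, Myh8, a fetal myosin heavy chain, had a ratio of 0.655 (p = 0.0293) and Ckm, the muscle creatine kinase, 0.678 (p = 0.0472) in the authors' deposited table.

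The other paralogues had ratios of 1.06 to 1.37. Rpl22l1 had means of 21.3 and 20.2 in the authors' deposited table, a ratio of 1.06, beside 1.11 for Rpl22 (means of 124 and 112). Rpl7l1, a paralogue linked to ribosome assembly, had, in the authors' deposited table, a ratio of 1.18, beside 1.32 for Rpl7. Rps27l, a p53-induced paralogue, had means of 9.38 and 6.84 in the authors' deposited table, a ratio of 1.37, beside 2.79 for Rps27. None of these 3 paralogues had a p under 0.05.

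X-linked members are Rpl10, which joins the large subunit late in its assembly, Rps4x, Rpl36a and Rpl39. Their ratios in the authors' deposited table were 1.44 for Rpl10 (37.5 and 26.0), 1.76 for Rps4x (131 and 74.7), 2.06 for Rpl36a (5.36 and 2.61) and 1.14 for Rpl39 (20.1 and 17.7), with p-values from 0.0654 to 0.264. The median over the 582 X-linked genes listed was 1.13, beside 1.14 over all genes. Xist, the RNA of the inactive X chromosome, had means of 735 in Fst-KO and 142 in WT (ratio 5.19), and the Y-linked genes Ddx3y, Uty, Kdm5d and Eif2s3y had ratios of 0.548 to 0.642 in the authors' deposited table. The sex of the embryos is not given in the labels, the group means of these sex-linked genes were unequal, and their part in the ratios of ribosomal protein genes was not tested.

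Some ribosomal proteins, when free of the ribosome, bind Mdm2 and so stabilise p53. All 6 of the listed binders had a ratio above 1: Rps7 at 2.98, Rpl11 at 2.17, Rpl26 at 1.34, Rps3 at 1.23, Rpl5 at 1.16 and Rpl23 at 1.16 in the authors' deposited table. Rpl5 and Rpl11 enter the ribosome together with the 5S rRNA, yet their ratios stood apart. Among 20 p53 targets the median ratio was 1.12, and an unadjusted p under 0.05 was found for 3 with a higher and 1 with a lower mean, beside 13.4% and 2.17% of all genes, with 0 past the FDR. Those were Pmaip1 (Noxa, a cell death gene) at 1.67, Sesn1 at 1.36 and Mdm2 at 1.21, and Ccng1 (cyclin G1) at 0.704, in the authors' deposited table.

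Genes mutated in Diamond-Blackfan anaemia, an inherited failure of red cell production, were listed 20 times among the members. All 20 had a ratio above 1, beside 80 of the 83 members and 81% of all genes. The median was 1.56, beside 1.31 over the members. A ratio above 1.5 was found for 11, beside 34.9% of the members and 5.5% of all genes. Rps26 alone had a p under 0.05, which is 5% of the list beside 13.4% of all genes with a higher mean at that p. The list includes low-level members with high ratios, such as Rps29, Rps7, Rps27, Rps28, Rpl11 and Rps19, and the better expressed Rps24 and Rps15a.

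The ratio varied with the level of the gene. Members with a WT mean under 10 (25 genes) had a median ratio of 1.78, those from 10 to 100 (42 genes) 1.25, and those of 100 or more (16 genes) 1.22. Over all genes the medians in the same classes were 1.18, 1.12 and 1.08. A ratio above 1.5 was held by 17 of the 25 low members (68%), against 11.5% of the 6120 low genes of the table, and by 1 of the 16 high members, Rplp0. Members exceeded the genes of their level in every class, by most in the lowest.

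**Figure D2:**
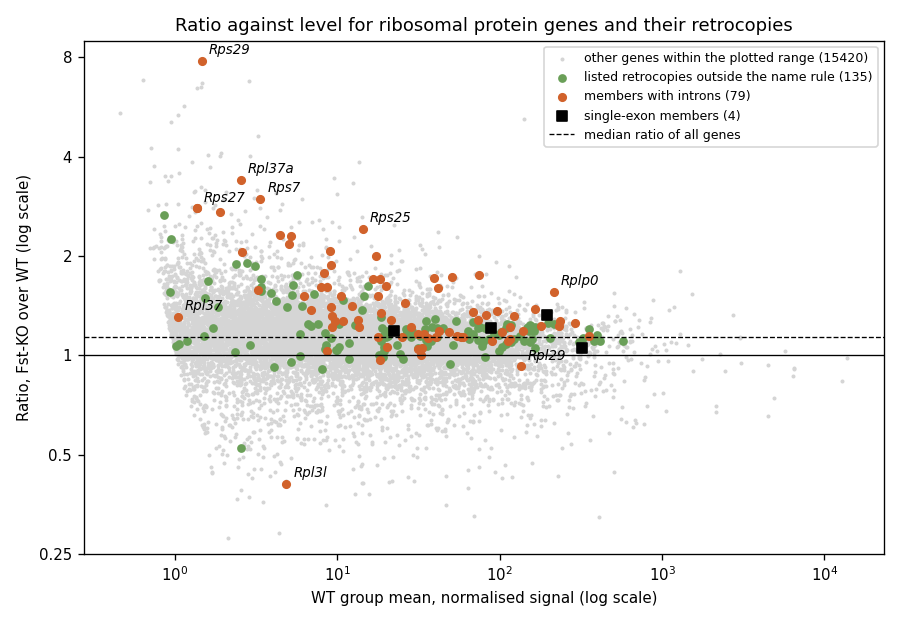
Ratio of Fst-KO over WT against the WT mean, both on log axes, for members with introns (orange), the 4 single-exon members (black squares), listed retrocopies outside the name rule (green) and all other genes within the plotted range (grey). The dashed line is the median of all genes at 1.14. The orange points spread upward below a WT mean of 10, while retrocopies of a WT mean of 100 or more lie between 1.05 and 1.26.

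The table lists 135 retrocopies of ribosomal protein genes outside the name rule, besides the 4 single-exon members. Their median ratio was 1.16, and 17 (12.6%) exceeded 1.5. Their summed means were larger than those of the 83 members, 10250 in Fst-KO and 8888 in WT. The deposited scale is not stated to be per length, but a copy and its parent share a coding sequence of nearly the same length. Aligned to the coding sequence of their parents, the 139 copies had a median identity of 98.9%, and 131 of them reached 95%. Identity is over the aligned bases only, which for Rpl18-ps1 were 12 of 564. Rpl36al, counted among the copies of Rpl36a, is a protein-coding gene with 2 exons and an identity of 87.7%. Another of these copies, Rpl36a-ps3, had 87.4%. Copies known only by a predicted-gene name were not counted.

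Most families with copies had more signal listed for the copies than for the gene with introns. Of 52 families with a listed parent, the copies exceeded the parent in WT in 42, and the parent held a median of 11.9% of its family in WT and 13.1% in Fst-KO. Rpl37, whose stretch is printed above, had means of 1.36 in Fst-KO and 1.04 in WT in the authors' deposited table, whereas its copy Rpl37rt had 168 and 153. Rps27 had 3.83 and 1.37, whereas Rps27rt, identical to it over all 252 coding bases, had 181 and 152 in the authors' deposited table. Rpl36a had 5.36 and 2.61 in the authors' deposited table, and its 4 listed copies sum to 166 and 141. Of these sums, the 2-exon gene Rpl36al gives 55.1 and 51.3. In these 3 families the low level belonged to the annotated parent and the high level to the copy.

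The ratios of parents and copies also differed. The median ratio was 1.30 for the 52 parents, 1.15 for the summed copies and 1.17 for parent plus copies, and the parent's ratio was the higher in 40 of the 52. Among the 19 families whose parent had a ratio above 1.5, the medians were 1.71 for the parent, 1.18 for its copies and 1.25 for the sum. In 0 of these 19 did the copies exceed 1.5, and in 1 did the sum, that of Rplp0 (1.51), whose parent holds 91.9% of the family in WT. Summed with its copies, Rps27 went from 2.79 to 1.20, Rpl36a from 2.06 to 1.20, Rps19 from 2.07 to 1.26, Rpl17 from 2.30 to 1.29, Rpl30 from 2.002 to 1.23, Rps25 from 2.42 to 1.31 and Rps26 from 1.52 to 1.12. The ratio of a sum is a mean of the parent's and the copies' ratios, weighted by their WT signal. Where the parent's share is small, it therefore lies near the ratio of the copies by arithmetic.

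In families where the parent held most of the signal, the sum lay near the parent, as the same arithmetic requires. Rpl29 held 97.1% of its family in WT and had a ratio of 0.927 alone and 0.926 with its copy. Rpl22 held 88.4% and had 1.11 alone and 1.16 with its copy. The handling of a read that matches both a parent and a copy was not given in the sources used here. Its part in the ratios was not tested. Of the members, 31 had no listed copy, including the 4 single-exon members, which are themselves copies. Also among the 31 were Rps29, Rpl37a, Rps7, Rpl24, Rps28, Rplp2 and Rpl11, so 7 of the 13 ratios above 2 come from genes without a counted copy. Copies known only by a predicted-gene name were not counted, so whether these genes lack copies was not shown.

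**Figure D3:**
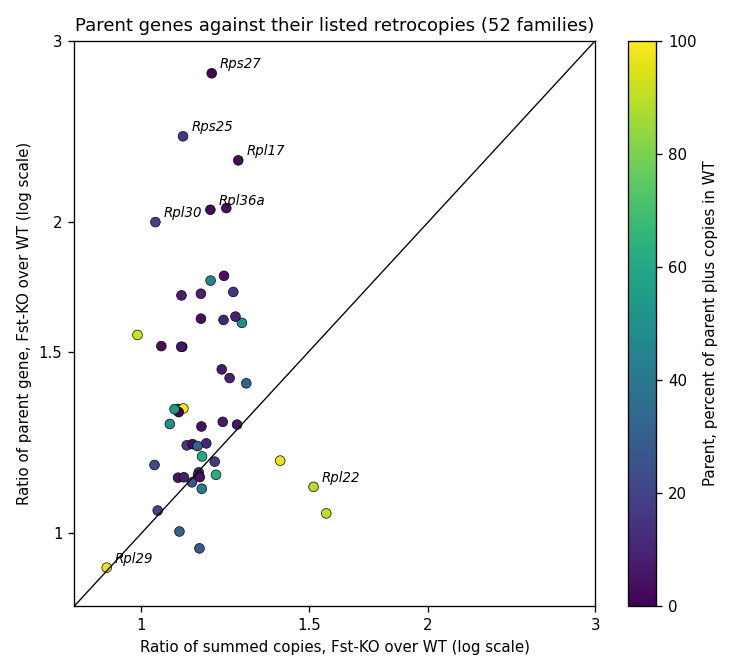
Ratio of each parent gene against the ratio of its summed listed retrocopies in 52 families, both as Fst-KO over WT on log axes, coloured by the percentage of the family's WT signal that the parent holds. The diagonal marks equal ratios, and 40 of the 52 families lie above it, most of them dark, with the parent holding a small share.

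The members share a gene structure of short exons. In GENCODE M21, the 79 members with introns had a median longest exon of 219 nucleotides, against 1313 in 12894 other protein-coding genes of the table, and in 53 of the 79 (67.1%) no exon reached 300 nucleotides, against 6.42% of the others. The ratio was highest in the class of shortest exons. The median was 1.59 for the 32 members whose longest exon is under 200 nucleotides, 1.25 for 21 members from 200 to under 300, 1.18 for 12 from 300 to under 500, 1.17 for 10 from 500 to under 1000 and 1.29 for 4 of 1000 or more.

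Other protein-coding genes of the same classes had medians of 1.18 (177 genes), 1.23 (651), 1.20 (1410), 1.16 (2834) and 1.12 (7822). The gap between the medians was widest in the shortest class, where 18 of 32 members (56.3%) and 15.8% of the others exceeded 1.5. In the next 3 classes the medians lay closer, but the share above 1.5 was still larger among members. It was 6 of 21 (28.6%) against 11.98%, 3 of 12 (25%) against 7.59% and 1 of 10 (10%) against 4.90%. These shares of members rest on few genes. With the longest transcript of each gene in place of the shortest, the medians of members and others in these 3 classes were 1.34 and 1.24, 1.32 and 1.21, and 1.23 and 1.16. Across the 79 members, Spearman's rho of the ratio was -0.41 with the longest exon (-0.27 with the longest transcript of each gene) and -0.44 with the mean level, while the longest exon and the level had a rho of 0.48 with each other. These are descriptions across genes that share the same libraries, and the effects of exon length and of level cannot be told apart here. BWA, named in the submitters' processing notes, is not a spliced aligner (general knowledge of the tool, not from the labels), and its part in these ratios was not tested.

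**Figure D4:**
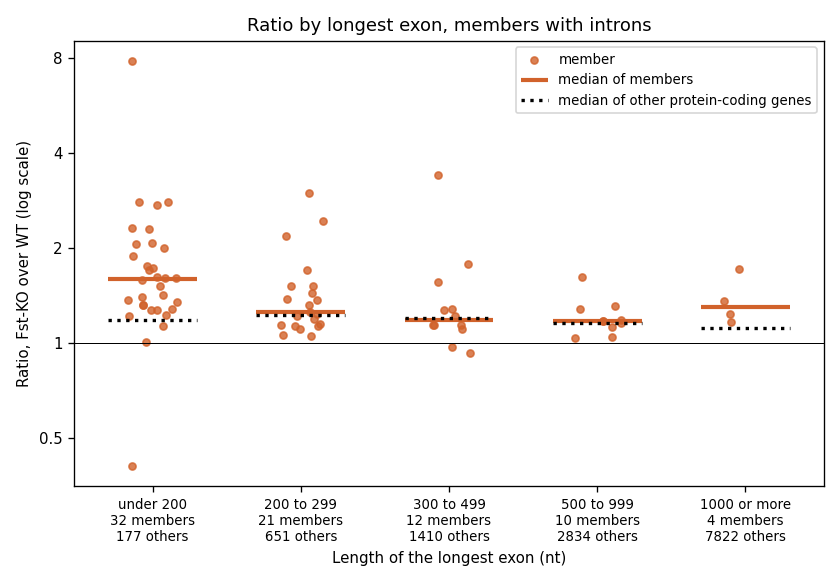
Ratio of Fst-KO over WT (log axis) for the 79 members with introns, grouped by the length of the longest exon in nucleotides. Points are genes, orange bars the median of the members and dotted bars the median of other protein-coding genes of the same class, which are 1.59 and 1.18 in the shortest class and 1.25 and 1.23 in the next.

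Promoters were searched for letters that many members share. RefSeq start sites of GRCm38.p6 were found for 59 of the 83 members, and windows of 50 bases before to 20 bases after the start are shown for Rps6 and Rpl28, which hold the letters CTCTTT at the start, for Rplp2 with its high ratio and for the muscle paralogue Rpl3l. Capitals mark these letters, a form of the TOP tract. Other pyrimidine runs, such as the one at the start of Rplp2, were not searched for.
Rps6 (chr4:86857348-86857417, minus strand): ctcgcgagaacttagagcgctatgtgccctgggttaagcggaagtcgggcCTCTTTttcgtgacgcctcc
Rpl28 (chr7:4792915-4792984, plus strand): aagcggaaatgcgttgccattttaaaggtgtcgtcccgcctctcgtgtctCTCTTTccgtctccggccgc
Rplp2 (chr7:141447601-141447670, plus strand): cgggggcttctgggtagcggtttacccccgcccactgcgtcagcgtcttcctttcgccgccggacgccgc
Rpl3l (chr17:24727776-24727845, plus strand): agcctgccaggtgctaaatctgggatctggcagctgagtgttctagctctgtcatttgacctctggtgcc
Rps6 carries the letters at its start and had a ratio of 1.13, and Rpl28 carries them and had 1.78 in the authors' deposited table.

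Each of 3 motifs was searched on both strands of the 300-base windows from 250 before to 50 after the start. CTCTTT (or AAAGAG) was in 42.4% of the 59 members and 22.9% of all 27025 promoters. Such a match can lie on either strand and anywhere in the window, whereas a TOP tract lies at the start of the mRNA. Neither this share nor the medians given below therefore separate TOP mRNAs from others. CCGGAAG (or CTTCCGG), a form bound by ETS factors, was in 39.0% of members and 9.12% of all. TATAAA (or TTTATA), the TATA box, was in 10.2% and 14.2%. Members with and without CTCTTT had median ratios of 1.31 and 1.27, and with and without CCGGAAG of 1.27 and 1.28, so the medians lay close together for both matches. With and without TATAAA, which 6 members hold, they were 1.39 and 1.28.

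Lists of genes that serve the ribosome without being part of it had medians nearer to the shift of all genes. Medians of the lists are given with the genes at an unadjusted p under 0.05, of which all genes gave 13.4% with a higher and 2.17% with a lower mean. None of the lists held a gene past the FDR of 0.05, and each list given next held a smaller share of higher means at that p than all genes did. Of 11 genes listed as translation elongation factors 1 (9.09%) had a higher mean at that p and 0 a lower mean. The median ratio of the list was 1.13. The gene with the higher mean was Eef2k, a kinase of Eef2 and not itself an elongation factor, at 1.28 in the authors' deposited table. Eef1a1, which brings aminoacyl-tRNA to the ribosome and whose mRNA also carries a TOP tract, had means of 3391 and 3013 in the authors' deposited table, a ratio of 1.13. Eef2, which moves the ribosome along the mRNA, had means of 1328 and 1215 in the authors' deposited table, a ratio of 1.09.

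Of 40 initiation factors 2 (5%) had a higher mean at that p and 0 a lower mean, with a median of 1.16. These were Eif2s3x, an X-linked subunit of the factor that delivers the first tRNA, at 1.47, and the helicase Eif4a1 at 1.25, in the authors' deposited table. The Y-linked Eif2s3y was at 0.642. The sex of the embryos is not given, and its part in the ratio of Eif2s3x was not tested. Chosen after their values were known, 3 genes of these lists combined a larger ratio with a p above 0.05. Of these, in the authors' deposited table, Eif3k was at 2.11 (p = 0.128) and Eif3e at 1.77 (p = 0.156), both subunits of the initiation factor eIF3, and Tpt1, from the elongation factor list, was at 1.92 (p = 0.128). Of 74 ribosome assembly factors 70 were listed, with 7 higher (10%) and 0 lower at that p and a median of 1.21. The largest ratios among these 7 were those of Rrp9 (1.66), Dhx37 (1.43) and Mrto4 (1.42) in the authors' deposited table. Of 19 genes of RNA polymerase I and its factors 16 were listed, with 1 higher at that p (6.25%), Tcof1 at 1.31 in the authors' deposited table, 0 lower and a median of 1.20.

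The list of regulators of mTOR signalling and of TOP mRNAs had a median of 1.06 over 21 genes. It also holds the transcription factors Myc and Mxd4, so the median is not of mTOR and TOP regulators alone. At that p 1 gene was higher (4.76%), Rps6kb2, a kinase of ribosomal protein S6, at 1.27, and 0 were lower. Larp1, which holds TOP mRNAs, had means of 145 and 137 in the authors' deposited table, a ratio of 1.06. Mitochondrial ribosomal proteins, the counterpart in another organelle, had a median of 1.07 over 77 of 78 genes, with 2 higher at that p (2.60%; Mrps25 and Mrps6, both at 1.27) and 0 lower. Relative to the shift of all genes these last 2 lists lay below 1, at 0.937 and 0.940. Ribosomal proteins outside the name rule had ratios in the authors' deposited table of 1.23 for Gnb2l1 (447 and 362) and 1.11 for Fau (9.70 and 8.74).

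**Figure D5:**
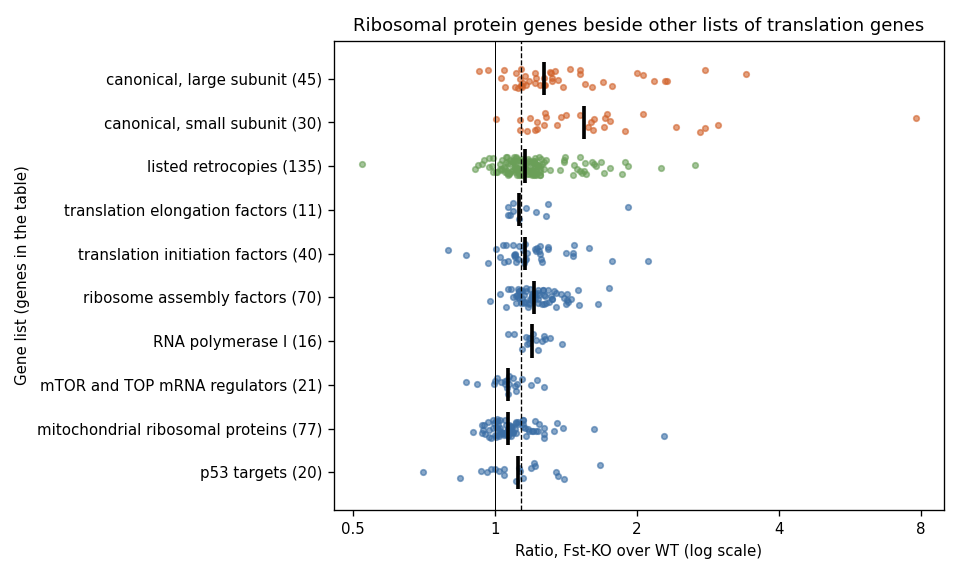
Ratio of Fst-KO over WT (log axis) for each gene of the ribosomal protein groups (orange), the listed retrocopies (green) and other lists of translation genes (blue), with the number of genes in brackets. Black bars are medians, from 1.55 for the small subunit to 1.06 for the list labelled mTOR and TOP mRNA regulators, which also holds Myc and Mxd4. The solid line marks 1 and the dashed line the median of all genes at 1.14.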

How the data were processed

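RNA from the tongue intermolar eminence was sequenced in 3 WT and 3 Fst-KO libraries. The authors aligned reads to mm10 in Partek workflows and ran Partek's gene-specific analysis, per the series' design text, and BWA 0.7.12 is named in the submitters' processing notes. Annotation, counting, normalisation and read depth were not given in the sources used here. Each deposited group mean is a normalised signal (a least-squares mean by its column name). The deposited ratio is Fst-KO over WT, which equalled the quotient of the means for all 15648 genes (relative tolerance 1e-06). Both p-values and FDR were deposited by the authors, and recomputing the FDR by Benjamini-Hochberg gave equal values for all 15648 genes. The total column equalled 3 times the summed group means, so each mean is over 3 libraries. Since only group values are listed, no error, interval or exact test could be given, and a 3 against 3 permutation could not go below 0.1.

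Medians, sums and counts were computed with Python 3.11.15 and pandas 2.3.3, without a pseudocount or a further filter, and the code was tested on simulated data. Symbols were matched to GENCODE M21 for GRCm38 (15082 of 15648 genes, 83 of 83 members). Exon lengths are of 1 transcript a gene, protein-coding, principal by APPRIS where marked, basic, then the shortest. Copies were aligned to parent coding sequences with Biopython 1.88, junction stretches were read from GENCODE transcripts, and promoters are from RefSeq (GRCm38.p6).

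Members, lists and groupings were chosen with earlier results of these data known. Named members are the 10 highest and 10 lowest ratios at or above the median level of all genes, the 5 most abundant, the paralogue, stalk, Mdm2-binding and X-linked members and those with p under 0.05, from which examples were taken; in other lists, up to 4 genes with p under 0.05, or the most abundant 2. Other members and sex-linked genes were named after their values were seen. Alternatives were the scale, pseudocounts, summaries, subsets of members and thresholds. Nerve, leukocyte and endothelial markers had median ratios of 1.40, 1.42 and 1.01. A few members and results are not reported here.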

Additional observations from a re-analysis of the deposited data

How the results depend on the processing

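No paired analysis was possible because the table holds no value per library, and leaving out a library was not run for the same reason. With no replicate spread, a value was taken as moved when it changed by over 1%. The median ratio of members (1.31) stayed above 1 under every scale and subset run: 1.15 relative to the median of all genes, 1.23 with the group sums made equal, 1.27 with 1 and 1.20 with 10 added to both means, 1.43 as the mean log2 ratio turned back to a ratio, and 1.21 for members at or above the median level. With choices made after seeing the data it was 1.27 as the ratio of sums and 1.21 over members and listed retrocopies together. The median of all genes was itself above 1, at 1.14. Relative to that value, the median of members at or above the median level was 1.07. At p under 0.01 the count of members went from 4 to 0. The share of the summed signal (1.19 times higher in Fst-KO) was 1.17 times higher without the most abundant 1% of genes, 1.20 without the 5 most abundant members and, added after seeing the data, 1.12 with retrocopies. The median for the shortest exon class was 1.55 with the longest transcript, also added later. The cause of these moves was not tested beyond what each choice leaves in or out. The count past the FDR stayed at 0 at FDR under 0.10 and when adjusted over genes at or above the median level. Depth is unknown, so how far counting error limits the low-level members, such as Rps29, cannot be given.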
